A study of Mus musculus with 18 samples.

Results

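The mRNAs described here are annotated isoforms of mouse myotubes whose deposited 5′ UTR opens with C and then 4 pyrimidines (C or T), the terminal oligopyrimidine (TOP) start. They were taken by sequence alone from all nuclear isoforms with an annotated start and end. The rule uses no value of coverage, TE or half-life, but it was chosen with earlier results of these data known. The rule found 200 TOP isoforms among 7123 isoforms of the polysome table and 199 among 6636 isoforms of the decay table. Of these, 94 had the same 2 ends in both tables, so that 305 distinct isoforms of 237 loci and 261 different 5′ ends were covered in all. They were set against 3327 other annotated isoforms in the polysome table and 3186 in the decay table.

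The isoforms came from TIF-seq2, a method that reads both ends of single mRNA molecules. Primary myoblasts, taken from gastrocnemius of female WT mice, were fused into myotubes within 24 h by the ERK inhibitor SCH772984 at 1 µM, which all samples had received. In the decay assay, actinomycin D at 7.5 µg/ml blocked transcription, and RNA came from 0, 3, 6 and 12 h from 3 mice, in 12 libraries. For the polysome assay, cells of 2 mice were treated for 5 min with 100 µg/ml cycloheximide and separated on sucrose gradients into free, light (2 to 5 ribosomes) and heavy (6 or more ribosomes) fractions, in 6 libraries. The deposited tables hold 1 pooled value per isoform and no column of a single library, so no value below has a replicate error and no comparison below carries a p-value. "TE" is the authors' value per isoform in the polysome table and "half-life" their value in the decay table, neither with a stated unit or formula. Positions are of build GRCm39, per the submitters' processing notes.

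TOP mRNAs are best known for encoding ribosomal proteins and translation factors. Their transcription starts at a C within a pyrimidine stretch, and the cap-adjacent pyrimidines are read by the RNA-binding protein LARP1, which holds these mRNAs out of polysomes when the growth kinase mTORC1 is inactive. When growth signals are present the same mRNAs are loaded with ribosomes together, and LARP1 is also known to stabilise them. In muscle, mTORC1 is known to drive the growth of fibres.

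The first bases of isoforms picked from the most covered named ones show what the rule captured. Unnamed members, among them the most covered of all over both assays, are not shown here. Capitals mark the unbroken pyrimidine run at the start, and each sequence is the deposited 5′ UTR read 5′ to 3′, up to 25 nt. The first set holds ribosomal proteins, with runs of 5 to 17 nt:
Rplp2: CTTTCgccgccggacgccgccgagg
Rps10: CTTTCCagcctccgcctcggaccct
Rpl13a: CTTTCCCaggcggctgccgaag
Rpl10a: CTTCTTTCCggtttccgcggcagcc
Fau: CTCTTTCTTgactccatcttcgcgg
Rps25: CTTTTTTTCCgacatcttagcgagg
Rpl26: CTCTTTCCTTTTgcggccatcggtg
Rps24: CTCTTTTCCTCCTCTCCagctccgg

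The second set holds TOP isoforms of genes outside the translation machinery, shown because they meet the same rule, with runs of 5 to 8 nt:
Fis1: CTCTCCgcccctgctactggaccat
Fdx2: CTTCCggtcacgtggcctatc
Nkiras2: CCTTCCacccagaggaagagggccg
Hmga1: CTTTTTaagctcccctgagccgggg
Bgn: CTCTCTCCacgaactgcccaggagc
Oxa1l: CTCTTCCCggcaag

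Rplp2 lies at chr7:141027564-141031262 on the plus strand, Rps10 at chr17:27849397-27854214 on the minus strand and Fis1 at chr5:136990960-136995086 on the plus strand. Members lay within 100 nt of an annotated start, with a median distance of 0 nt in both tables.

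A TOP start was carried by 5.67% of the annotated isoforms in the polysome table (95% Wilson interval 4.95 to 6.48) and by 5.88% in the decay table (5.14 to 6.72). The intervals cover the counting of isoforms only. TOP isoforms held more of the molecules than of the isoforms: 13.1% of annotated coverage in the polysome table and 13.6% in the decay table. A few of them carried most of this. The 26 members with a coverage over 1000 held 79.7% of the members' polysome coverage, and 48 such members held 89.5% of their decay coverage. In bulk cultures, fewer cells of a type and less RNA per cell cannot be told apart. The median member had a coverage of 90.5 in the polysome table and 168 in the decay table. Isoforms with a new start and an annotated end had this start in 3.51% (2.65 to 4.62) in the polysome table and 3.57% (2.64 to 4.81) in the decay table. With a new 3′ end only the shares were 6.38% and 6.12%, and with both ends new 8.77% (6.21 to 12.2) and 8.24% (5.76 to 11.6).

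The C at the cap was the rare part of the signal. Annotated mRNAs began with A in 64.0% (polysome) and 65.8% (decay) of isoforms, with C in 12.2% and 11.3%, and with T in 2.15% and 1.60%. Once an mRNA started with C, a TOP run followed in 200 of 429 polysome isoforms (46.6%) and 199 of 382 decay isoforms (52.1%). The second base, which the rule limits to C or T, was T in 80.5% of members in the polysome table and 86.9% in the decay table, and CTT was the opening triplet in 46% and 48.7%. Counting only isoforms with a pyrimidine there, T made up 50.3% (polysome) and 53.5% (decay) of other annotated isoforms. Among C starts without a TOP run it was 82.5% and 91.7%.

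The pyrimidine run had a median of 6 nt and ended at 17 nt at most. It reached 8 nt or more in 66 polysome members (33%) and 80 decay members (40.2%). Beyond the 5 bases that the rule fixes, pyrimidines stayed more frequent than in other annotated isoforms. At position 6 the share was 71.6% in TOP isoforms and 51.9% in others of the polysome table, and 77.1% against 50.9% in the decay table. At position 10 it was 72.6% against 50.3% and 69.7% against 50.3%. At position 15 the 2 groups were at 54.7% and 49.5% in the polysome table. The gap varied after that, with 63.2% and 50.3% at position 18 but 44.7% and 48.8% at position 19.

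**Figure D1:**
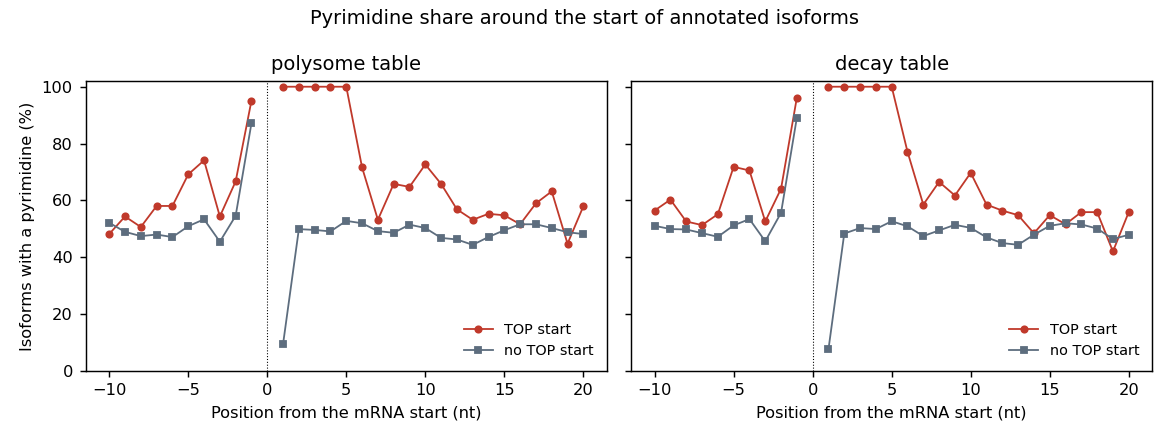
Share of annotated isoforms with a pyrimidine (y axis, %) at each position from the mRNA start (x axis, nt), for isoforms with a TOP start (red circles) and without (grey squares), in each table. Positions from 1 on come from the deposited 5′ UTRs and those below 0 from matched RefSeq promoters; the 5 positions at 100% are the rule itself, and the TOP share is above the other at each position from 1 to 15.

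The bases upstream of the start, which the rule did not use, were read from RefSeq promoters of build GRCm38.p6 for 84 polysome members and 83 decay members that could be matched. Capitals again mark the run, and the 15 bases before it are genomic. All 4 promoters shown are of ribosomal protein genes, and the base before the start is C or T in each:
Rplp2 promoter: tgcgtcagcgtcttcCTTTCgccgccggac
Rps10 promoter: cgcgcacgccccttcCTTTCCagcctccgc
Fau promoter: cgcccccacttcttcCTCTTTCTTgactcc
Rpl38 promoter: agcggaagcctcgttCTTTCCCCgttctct

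These windows are chr7:141447636-141447665 (plus), chr17:27635226-27635255 (minus), chr19:6057936-6057965 (plus) and chr11:114668565-114668594 (plus) of GRCm38.p6. A pyrimidine stood before the start in 80 of 84 TOP isoforms (95.2%) and 87.3% of the 1528 other matched isoforms of the polysome table, and in 80 of 83 (96.4%) and 89.3% of 1474 in the decay table. For ribosomal protein isoforms, of 23 and 28 genes, it was 29 of 29 and 35 of 35, with isoforms of the same start each counted. T in this place is the first base of the TCT initiator known from ribosomal protein promoters of flies and humans. The C after it is fixed by definition in TOP isoforms and in C starts without a TOP run, and was not required in the wider groups. The T after that C was required in no group, so the shares are not those of a full TCT. T before the start was found in 39.3% of TOP isoforms against 27.2% of others in the polysome table, and in 37.3% against 26.4% in the decay table. C starts without a TOP run had it in 37.1% (polysome) and 29.0% (decay). T stood before the RefSeq start in 24.0% of all 32851 promoters of 300 nt. The core motif TATAA, searched on both strands from 40 to 16 nt before the start, occurred in 6 of 84 TOP isoforms (7.14%) against 4.32% of others, and in 8 of 83 (9.64%) against 4.34%. Of the matched ribosomal protein isoforms, 5 of 29 and 6 of 35 held it, and of all RefSeq promoters 4.35% did. A match is a description of letters in this window and not of a bound factor.

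The same match gave gene names to 84 of the 200 polysome members (74 genes) and 83 of the 199 decay members (73 genes). The others are given by position, except in the pairs of starts below, where 1 name is given for both isoforms. The TOP isoforms of Snd1, Eif4e2, Npdc1 and Nrm in these pairs were not named by the match and count as unnamed elsewhere. Cytosolic ribosomal proteins supplied 23 genes in the polysome table and 28 in the decay table. They held 31.9% and 32.4% of all member coverage. Of ribosomal protein genes, 27 could be named at all in the polysome table, of which 23 had a TOP isoform (85.2%); in the decay table there were 35, of which 28 had one (80%). Of their annotated coverage, 96.3% and 94.9% came from TOP starts. Among 1165 named genes outside the translation list 48 had a TOP isoform (4.12%), and in the decay table it was 39 of 1221 (3.19%), with 2.12% and 1.38% of their coverage. The translation list also held factors and other genes, such as Nap1l1, chosen because they are known in mammals to carry a TOP start. Of these, 3 of 7 named in the polysome table and 6 of 12 in the decay table had a TOP isoform. The choice of the list favours such shares, and a gap to genes outside it. Those with a TOP isoform included Eef2, which moves the ribosome along the mRNA, and the eIF3 subunits Eif3k, Eif3l and Eif3m of the initiation complex.

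Ribosomal protein genes with no named TOP isoform in a table were few and mostly of low coverage. In the polysome table they were Rpl34, Rpl9, Rps15 and Rps15a, and 7 such genes were in the decay table. Some of their loci did hold TOP members: Rps15a had one in the decay table, Rpl36al one in the polysome table, and the Rps7 locus an unnamed one in the decay table. The highest was Rps15, a protein of the small subunit, with a coverage of 1577 and a TE of 0.00165 in the polysome table and 3149 and a half-life of 12.1 in the decay table. The starts of Rps15, Rpl36al and Rps7, chosen after their values were seen, are shown with capitals for pyrimidines at the very first positions:
Rps15: gtacttccttttccgagtaaccgcc
Rpl36al: gttcgtccctttcctgttcggcgcg
Rps7: TCTTTTCTTCCgccacccggatatg

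Rps15 opens with G and holds its pyrimidine stretch a few bases inside, at chr10:80128287-80129947 on the plus strand. Rpl36al, with a coverage of 963 in the decay table and a half-life of 12.6, opens with G as well, at chr12:69229513-69230818 on the minus strand. In the polysome table Rpl36al is a member, through the isoform chr12:69229513-69230812 with a run of 9 nt and a coverage of 224. Rps7, at chr12:28681083-28685928 on the minus strand, has a run of 11 pyrimidines that begins with T, a coverage of 80 and a half-life of 16.1. The TOP isoform of the same locus and 3′ end, chr12:28681083-28685880, has a run of 8 nt, a coverage of 85 and a half-life of 9.10. A C with 4 pyrimidines lay inside the first 25 nt in 3 of 8 ribosomal protein isoforms outside the rule in the polysome table and 6 of 12 in the decay table, against 26.9% and 25.9% of all annotated isoforms without a TOP start.

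TOP mRNAs had shorter UTRs on both sides of the coding sequence. These and all later values, unless another coverage is given, are from isoforms covered at least 30 times, with both UTRs and a value above 0, which left 137 TOP isoforms (126 loci) and 2034 others (1532 loci) with TE, and 169 TOP isoforms (154 loci) and 2656 others (2029 loci) with a half-life. In the polysome table, 62 members were below this coverage, and 27 were in the decay table. The median 3′ UTR was 164 nt in TOP isoforms and 343 nt in others in the polysome table, and 141 nt against 341 nt in the decay table. A 3′ UTR of 150 nt or less was found in 48.2% of TOP isoforms against 23.8% of others, and in 50.9% against 21.1%. The 5′ UTR was shorter too, with medians of 81 nt against 109.5 nt and 77 nt against 100 nt. Median coverage was 224 against 114.5 in the polysome table and 299 against 135 in the decay table. Within bins of like UTR lengths, TOP isoforms had 1.80 times the coverage of others in the polysome table and 2.09 times in the decay table.

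Several features were then compared with others of the same length bins, each with the others' share reweighted to the bins of the TOP isoforms. Upstream AUGs, searched as ATG on the mRNA strand of the 5′ UTR, were found in 24.8% of TOP isoforms (95% Wilson interval 18.3 to 32.7) against 33.4% in the polysome table, and in 25.4% (19.5 to 32.5) against 32.3% in the decay table. The poly(A) signal AATAAA or ATTAAA within the last 40 nt was found in 89.8% (83.6 to 93.8) against 82.0%, and in 88.8% (83.1 to 92.7) against 82.7%. A purine 3 bases before the start codon, the main base of the Kozak context, was about as frequent, at 87.6% against 87.0% and 86.4% against 87.9%. ATTTA, the pentamer of AU-rich elements, occurred in the 3′ UTR of 19.7% against 19.6% and 23.7% against 23.2%. Without reweighting, others held ATTTA in 29.1% and 33.5%.

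TE of TOP isoforms had a median of 0.000811 (quartiles 0.000500 and 0.00108) and that of others a median of 0.000750 (0.000528 and 0.00108). Taken over all isoforms, this is a 1.08-fold higher median. Set against others of like UTR lengths the direction turned: TOP isoforms were lower by a log2 difference of -0.20, or 0.871-fold, over 133 TOP and 1760 other isoforms in 12 bins. A linear model over all 2171 isoforms with terms for both UTR lengths and coverage gave a log2 coefficient of -0.32 ± 0.0593 for a TOP start (SE clustered by locus, 95% interval -0.44 to -0.20), or 0.800-fold. The interval describes spread between loci and not between mice. Of the 137 TOP isoforms, 80 (58.4%, Wilson interval 50.0 to 66.3) had a TE below the median of all annotated isoforms in their length bin, against a background of 49.8% of all isoforms tested.

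The length bins show where the groups differ. With 3′ UTRs of up to 150 nt the median TE was 0.00101 in 66 TOP isoforms and 0.00103 in 484 others. Above 150 and up to 400 nt it was 0.000771 in 49 TOP isoforms against 0.000873 in 670 others, and above 400 and up to 1200 nt 0.000495 in 16 TOP isoforms against 0.000635 in 705 others. Above 1200 nt it was 0.000396 in 6 TOP isoforms against 0.000438 in 175 others, a log2 difference of -0.14 after -0.36 in the bin before. Median TE was lower at longer 3′ UTRs in both groups, and the bin of up to 150 nt held 48.2% of TOP isoforms. Along the 5′ UTR the log2 difference was 0.035, 0.20, -0.0069 and -0.20 in the bins that end at 50, 100 and 200 nt and the bin above.

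The median half-life was higher in TOP isoforms. It was 12.2 (quartiles 10.3 and 13.8), against 10.7 (8.99 and 12.8) for others. Within length bins the log2 difference was 0.13, or 1.10-fold, over 166 TOP and 2503 other isoforms in 13 bins. In the linear model, with coverage as a term, the coefficient was 0.068 ± 0.0352, and its 95% interval of -0.00140 to 0.14 reached just below 0. In all, 108 of 169 TOP isoforms (63.9%, Wilson interval 56.4 to 70.8) lay above the median half-life of their bin, against a background of 49.9%. The difference was positive in each of the 4 bins of 3′ UTR length, at 0.13, 0.12, 0.15 and 0.059 on the log2 scale, and in each of the 4 bins of 5′ UTR length, at 0.22, 0.12, 0.27 and 0.17. Coverage in the decay table sums libraries of every time point, so long-lived mRNAs can gain coverage there; the part of this in the difference was not tested.

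**Figure D2:**
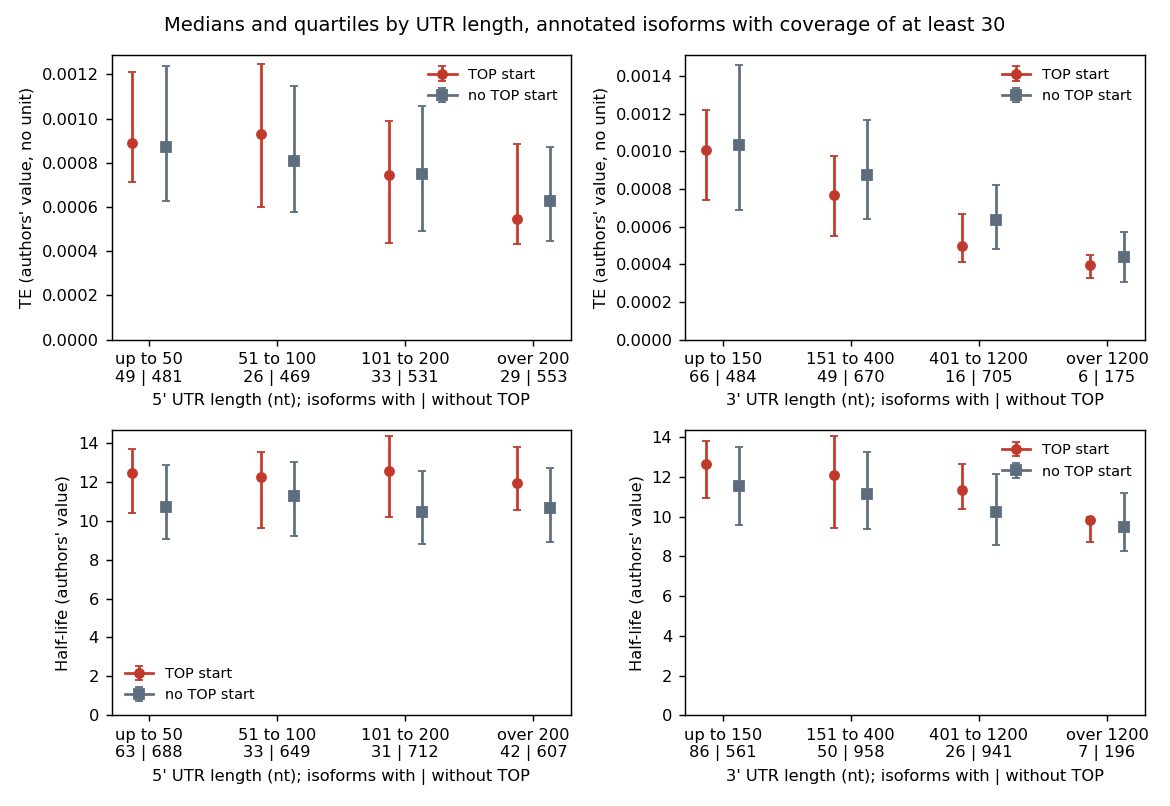
Median TE (top) and median half-life (bottom) by length of the 5′ UTR (left) and of the 3′ UTR (right), with quartiles as bars, for isoforms with a TOP start (red circles) and without (grey squares); the counts under each bin are isoforms with and without a TOP start. TE is lower at longer 3′ UTRs in both groups, and the half-life median of TOP isoforms is above the other in every bin.

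Ribosomal protein mRNAs stood at the upper end of TE among the members. Their 24 TOP isoforms in the polysome table had a median TE of 0.00114, against 0.000628 for 31 TOP isoforms of other named genes outside the translation list and 0.000767 for 79 unnamed TOP isoforms. Their 3′ UTRs were also the shortest, with a median of 53.5 nt against 325 nt for the other named genes. Set against isoforms of like lengths, ribosomal proteins were split evenly, with 12 of 24 below their bin's median TE, against the background of 49.8%. The model coefficient was -0.25 for named ribosomal proteins (95% interval -0.57 to 0.069) and -0.24 for other named genes (-0.43 to -0.055). For the 113 members without a ribosomal protein name it was -0.34 (-0.46 to -0.22). These include the 79 unnamed isoforms, and unnamed members can belong to ribosomal protein genes, as at the Rps7 locus of the decay table. For half-life, 23 of 31 ribosomal protein isoforms (74.2%) were above their bin's median, against the background of 49.9%. Median half-lives were 12.9 for 31 ribosomal protein isoforms, 10.97 for 33 TOP isoforms of other named genes and 12.3 for 99 unnamed ones. The model coefficients for half-life were 0.077 (-0.053 to 0.21) for ribosomal proteins and -0.032 (-0.19 to 0.13) for other named genes. Within length bins, without a coverage term, other named genes had log2 differences of -0.44 for TE and -0.25 for half-life, and ribosomal proteins of -0.17 and 0.15. The difference between these classes was not tested.

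Among single genes, the values spread widely. Rplp2, an acidic protein of the ribosomal stalk that recruits elongation factors, was the most covered named member, with a coverage of 12873 and 18216, a TE of 0.00128 and a half-life of 12.6. Rpl10a, a large-subunit protein, reached a TE of 0.00184 and a half-life of 13.8. Fau, which encodes a ubiquitin-like protein fused to a small-subunit protein, had the highest TE of any member with a coverage of at least 100, at 0.00212, and a half-life of 15.4 for its isoform in the decay table. At the other end Eef2 had a TE of 0.000258 at a coverage of 4590, with a half-life of 11.3.

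Most small- and large-subunit proteins lay between these. Rps10 had a TE of 0.00142 and a half-life of 13.4, Rpl18 0.00132 and 12.7, and Rps25 0.00142 and 13.5. Rpl38 had 0.00117 and 12.8, Rpl26 0.00121 and 12.9, and Rps21 0.00116 and 12.4. These 6 genes are among the most covered, with half-lives between 12.4 and 13.5; over all 31 TOP ribosomal protein isoforms the 5th and 95th percentiles of half-life were 9.62 and 20.96. The longest run, of 17 pyrimidines, was found in Rps24 and also in Rpl7a and Hpcal1, among others. Rps24 had a TE of 0.00111 in the polysome table and, for an isoform with another 3′ end, a half-life of 10.97 in the decay table. The isoforms of Rpl7a and Hpcal1 with this run had half-lives of 14.6 and 11.98.

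Isoforms with the same TOP start could differ through their 3′ ends. Rpl13a ended in a 3′ UTR of 23 nt or of 381 nt. The short form had a coverage of 1782, a TE of 0.00180 and a half-life of 14.6, and the long form a coverage of 504, a TE of 0.000771 and a half-life of 12.9. Rpsa, a small-subunit protein also known as the laminin receptor precursor, had 3 ends. With a 3′ UTR of 65 nt its coverage was 8829, its TE 0.000457 and its half-life 12.9. With 19 nt it had 290, 0.000376 and 18.3, and with 135 nt 253, 0.000284 and 23.7. Its deposited 5′ UTR is 702 nt long in all 3, far above the ribosomal protein median of 42.5 nt in the polysome table.

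TOP isoforms outside the translation machinery covered many functions. Fis1, an adaptor of mitochondrial fission, had a TE of 0.000944 and a half-life of 13.8, and Fdx2, a mitochondrial ferredoxin of iron-sulfur cluster assembly, 0.000798 and 12.6. Bscl2, the lipid droplet protein seipin, had 0.000833 and 12.7, and Rbck1, a subunit of the linear ubiquitin ligase, 0.000440 and 11.9. Oxa1l, an insertase of the inner mitochondrial membrane, had 0.000575 and a short half-life of 9.40, and Bgn, the matrix proteoglycan biglycan, 0.000873 and 9.51. Nkiras2, a Ras-like inhibitor of NF-kappa-B signalling, had a TE of 0.000407 and a 3′ UTR of 1369 nt, and Dnpep, an aminopeptidase, 0.00101 with 93 nt. Hmga1, an architectural chromatin protein, had a half-life of 10.8 in the decay table and, for an isoform ending 2 nt away, a TE of 0.000387. Tmem176b had a half-life of 14.1. Of the 9 of these genes with a TE, 3 (Fis1, Dnpep and Bgn) were above the median of their length bin, against a background of 49.8%.

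The extremes among members with a coverage of at least 100 also included unnamed isoforms. The lowest TE, 9.85e-05, belonged to the isoform chr10:127871514-127884501 (plus strand), with a run of 8 pyrimidines and a half-life of 9.53. The shortest half-lives were 6.12 for chr3:88991288-88997300 (minus strand) and 6.98 for Atxn10. The longest were 25.6 for chr17:13135352-13143445 (plus strand) and 26.1 for an isoform on chromosome 18 with a coverage of 5196. That last isoform had a TE of 0.000743, below the median of its bin by 0.44 on the log2 scale.

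Within TOP isoforms, the length of the run was weakly related to either value. Spearman's rho between run length and TE was 0.147 over 137 isoforms, and with half-life 0.0953 over 169. Longer runs also had shorter 3′ UTRs (rho -0.228 and -0.231) and higher coverage (0.130 in both). Isoforms share loci and libraries, so these are descriptions. Median TE was 0.000667 at 5 nt, 0.000856 at 6, 0.000874 at 7, 0.000733 at 8, 0.000908 at 9 to 10 and 0.000838 at 11 or more. Median half-life was 11.9, 11.9, 12.5, 11.4, 13.04 and 13.3 over the same classes.

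Isoforms just inside and just outside the rule had close median TE. Those with exactly 5 pyrimidines had a median TE of 0.000667 (n = 35), against 0.000671 for a C with 3 pyrimidines and then a purine (n = 24) and 0.000750 for a C with 2 (n = 38). Half-life medians were 11.9 (n = 40), 11.1 (n = 25) and 10.98 (n = 38). None of these medians, of TE or half-life, is matched for UTR lengths. Named ribosomal proteins supplied 4 of the 35 and 4 of the 40 isoforms just inside the rule and none just outside.

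**Figure D3:**
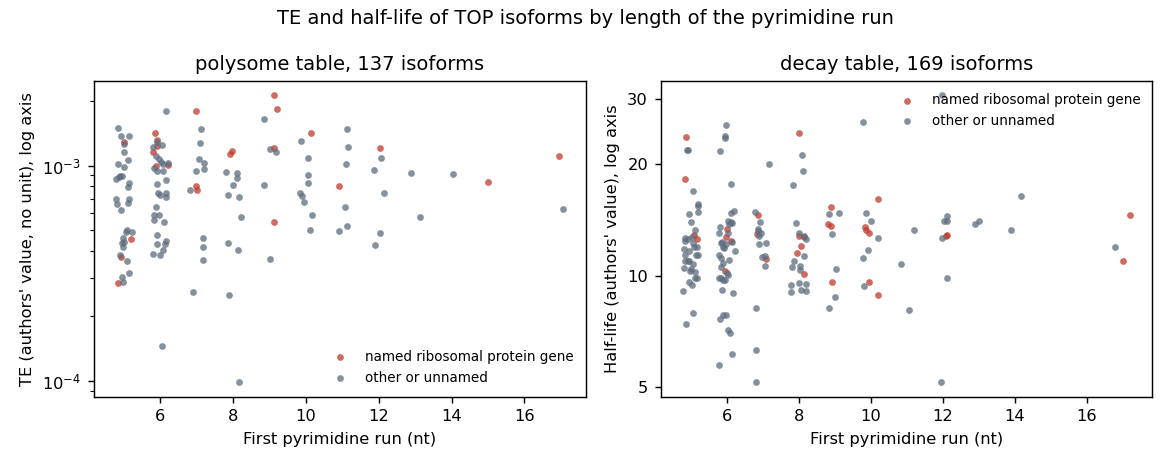
TE (left) and half-life (right) of each TOP isoform against the length of its first pyrimidine run (x axis, nt, points shifted slightly sideways), on log axes; red points are named ribosomal protein genes and grey points other or unnamed genes. Values spread widely at every run length, and ribosomal protein genes lie mostly in the upper part of TE.

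Many loci used TOP starts side by side with other starts. Other starts were also found in 104 of the 172 loci with a member in the polysome table, and in 95 of 174 in the decay table. In these the TOP starts supplied a median of 54.9% of the locus coverage in the polysome table and 61.5% in the decay table, and over 50% in 57 and 53 loci. Such loci allow a comparison in which the start codon, the coding sequence between the same ends and the 3′ UTR are shared, although the tables do not record splicing between these ends. The starts below show the change in letters for 2 genes, TOP start first:
Snd1 TOP start: CTCTTTTgctcccagtcccgctggt
Snd1 other start: agaacgtgtggcggcggcggagatc
Eif4e2 TOP start: CTCTCTgaacgcggcttccctcccg
Eif4e2 other start: actccgtgaggcagtggcgacagcg

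Snd1, a nuclease and coactivator, started at chr6:28480394-28888819 for the TOP isoform and chr6:28480362-28888819 for the other (plus strand). Its TE was 0.000417 for the TOP start, against 0.000629, and its half-life 13.4 against 9.18. Eif4e2, a cap-binding relative of eIF4E, started at chr1:87142080-87155784 and chr1:87141686-87155784 (plus strand). Its TE was 0.000946 for the TOP start, against 0.00123, and its half-life 11.6 against 12.3. The 2 Eif4e2 isoforms also differ in 5′ UTR length, at 133 nt for the TOP start against 216 nt. Only the longer one holds an upstream AUG. The 2 genes were chosen after their values were seen, as pairs with names and both readouts; Npdc1, the other such gene, had a TE of 0.000922 against 0.000712 and a half-life of 14.1 against 16.1.

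Over 26 loci with such pairs, the TOP isoform had the lower TE in 16 (61.5%, Wilson interval 42.5 to 77.6), with a median log2 ratio of -0.13 and an SD of 0.657 between loci. The spread between loci was larger than the shift. With the TOP start upstream it was lower in 12 of 17 loci (median -0.17), and with the TOP start downstream in 4 of 9 (0.075). In the 21 loci whose paired isoforms did not differ in an upstream AUG, it was lower in 12 (57.1%), with a median of -0.080. At a coverage of at least 10 in both isoforms, 41 of 63 loci were lower (65.1%, 52.8 to 75.7) with a median of -0.24, and at a coverage of at least 60, 4 of 8 were lower with a median of 0.15. For half-life, the TOP isoform was lower in 15 of 34 loci (44.1%, 28.9 to 60.5), with a median log2 ratio of 0.046 and an SD of 0.629. At a coverage of at least 60 the direction turned, with 10 of 16 loci lower and a median of -0.050. The largest ratio, 2.60 on the log2 scale for Nrm, compared a half-life of 14.6 at a coverage of 50 with 2.41 at a coverage of 30. Eef2 had 11.3 for its TOP start at a coverage of 7549, against 13.5 for a start downstream at a coverage of 53, and Rps15a 11.5 against 9.88.

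**Figure D4:**
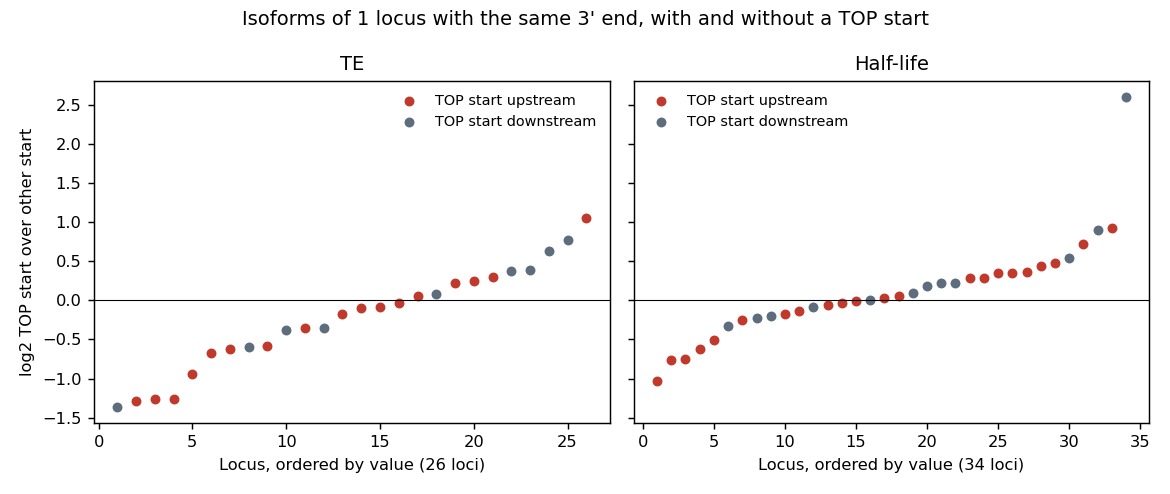
Log2 ratio of TOP start over other start (y axis) for TE (left, 26 loci) and half-life (right, 34 loci), each point 1 locus in order of its ratio, red where the TOP start lies upstream of the other start and grey where it lies downstream. Ratios fall on both sides of 0 in both panels, and the TE ratios lie below 0 in 16 loci.

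Of the isoforms measured well in both assays, 77 had a TOP start and 1042 did not. In TOP isoforms the rank correlation between TE and half-life was 0.0940, and in others 0.271, both across isoforms that share libraries and, within each assay, coverage. A TE below and a half-life above the median of the length bin occurred together in 35 of 77 TOP isoforms (45.5%), against 22.6% of the 1042 others. Taken singly, TE was below the bin median in 58.4% of the 137 TOP isoforms with a TE. Half-life was above the bin median in 63.9% of the 169 TOP isoforms with a half-life. The joint share contains these separate shifts, so by itself it does not show that low TE and long half-life go together. Whether it exceeds what the separate shifts give was not tested. The difference from others was not tested either, since isoforms are not replicates.

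**Figure D5:**
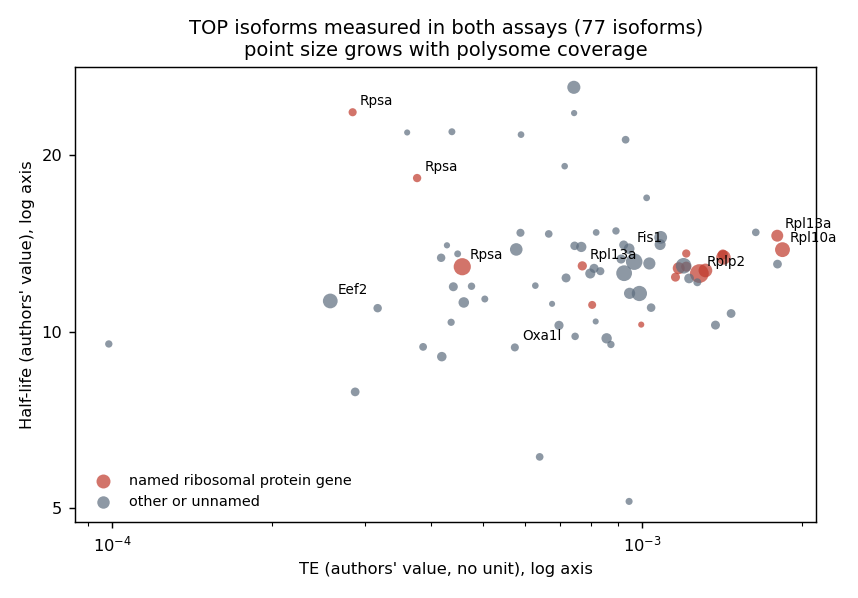
Half-life (y axis, log) against TE (x axis, log) for the 77 TOP isoforms with a coverage of at least 30 in both tables, red for named ribosomal protein genes and grey for other or unnamed genes, with point size growing with polysome coverage. Ribosomal proteins such as Rpl10a and Rplp2 sit at high TE and middle half-life, Eef2 at low TE, and 2 minor isoforms of Rpsa at low TE and long half-life.

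The labelled cell type could be checked through the same match of starts. Of 19 myotube markers, 14 had a matched isoform, with a summed coverage of 46451 in the polysome table and 137461 in the decay table. None of the 3 myoblast, 5 fibroblast, 2 endothelial and 2 immune markers was matched, which says that no start of theirs matched and not that they were absent.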

How the data were processed

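Both deposited tables were used. Coverage is the authors' deposited count per isoform, pooled over libraries; 0 columns hold single libraries, so depth per library is unknown. TE and half-life are the authors' deposited scores, for which no source used here gives a formula, nor says whether TE was scaled by length; the coding length is not in the tables. GRCm39, STAR 2.5.3a, UMI-tools 0.5.4, cutadapt 1.16 and bcl2fastq 2.20.0 are named in the submitters' processing notes. Signed distances of ends are deposited scores too, and positions come per the file headers.

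Isoforms sharing an end, or overlapping with equal 20 nt upstream of the start or downstream of the stop codon, formed a locus. Medians were compared in bins of 5′ UTR (50, 100, 200 nt) by 3′ UTR length (150, 400, 1200 nt) with at least 3 TOP and 10 other isoforms, weighted by TOP isoforms, and in a least-squares model (statsmodels 0.14.6), tested on simulated data. Pairs had the same 3′ end and nested 5′ UTRs, 1 per locus. Genes were named where the first 20 nt of the 5′ UTR matched 1 RefSeq promoter (GRCm38.p6) on the same chromosome and strand; matches of 15 to 19 nt, where the UTR or window ended sooner, were accepted after values were seen. The text names the 15 most covered translation genes' isoforms, the 10 most covered others and the 2 highest and lowest values at a coverage of at least 100; any others were chosen after their values were seen. Members and lists were chosen with earlier results of these data known.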

Additional observations from a re-analysis of the deposited data

How the results depend on the processing

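No paired analysis was possible because the tables hold no column of a single mouse or library, and for the same reason no replicate could be left out. In all, 48 alternatives were computed. Without length bins, the TE difference of TOP isoforms turned to 0.11 on the log2 scale; by its construction this setting compares groups of different UTR lengths. Over its other alternatives the binned TE difference ranged from -0.30 (coverage of at least 10) to -0.095 (against C starts with a purine), and the model coefficient from -0.35 to -0.26. The binned half-life difference ranged from 0.082 to 0.17, and was 0.18 without bins. The interval of the half-life coefficient lay above 0 without a coverage term, at 0.10, and with a term for an upstream AUG, at 0.069; the coefficient was 0.022 at a coverage of at least 60. At a coverage of at least 100 the share of TOP starts was 7.88% in the polysome and 7.13% in the decay table. Half-life pairs at a coverage of at least 60 had the TOP isoform lower in 62.5% of 16 loci, against 44.1% of 34; the cause was not tested. Alternatives against A starts, with an upstream AUG or genomic span term, without named ribosomal proteins in the model and in the run length relation, and with other partners of pairs were chosen after seeing the data.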

Other observations

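Limits of these values are the following. TE and half-life are single pooled values, so their error between mice is unknown. UTR lengths rest on the authors' choice of exons between 2 sequenced ends, which no source used here describes; 5′ UTRs of 702 nt for Rpsa and 232 nt for Rpl38 are as deposited. Gene names cover 41.3% of member coverage in the polysome table and 39.1% in the decay table. A start recorded a few bases off moves an isoform out of the rule.

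An unnamed isoform, chr8:71348023-71350056 (minus strand), was the most covered member of the decay table at 21681 and had 12479 in the polysome table, where it has no TE. Its half-life was 12.6 and it was left out of the length bins because no 3′ UTR is deposited for it. The lowest half-lives at a coverage of at least 30 were 5.14 for Sco2, which delivers copper to cytochrome oxidase, and 5.16 for Aimp1, a scaffold of the tRNA synthetase complex with a run of 12 pyrimidines. The highest was 30.7 for chr8:70960964-70963017 (minus strand), with a run of 12 as well and a coverage of 37.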
